A study of Mus musculus with 18 samples.

Results

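The LY6 surface antigen genes Ly6a, Ly6c1, Ly6c2, Ly6d, Ly6e and Ly6g were followed across every cell class, tissue and day of the series. These 6 genes were taken by name from the 22049 genes measured. All 6 passed the filter on low counts that left 11158 genes for testing. Cells came from lungs, spleens and implanted biomaterial scaffolds (porous implants that host cells enter) of female BALB/cJ mice. In the tumour-bearing group 2000000 cells of 4T1-tdTomato-luc2, a mouse mammary carcinoma line with fluorescent and luciferase labels, were put into a mammary fat pad at an age of 7 to 8 weeks. Healthy mice got no tumour cells. Libraries were made by Drop-seq, a droplet method that tags every captured transcript with the barcode of its cell and with a molecular identifier (UMI) that lets copies be counted as 1 molecule, at days 7, 14 and 21, when mice of both groups were 9, 10 and 11 weeks old. There was 1 library per tissue, status and day, 18 in all, so that each tissue and status had 3 libraries of different days. The number of animals behind each library is not stated in the labels, so p-values measure only the spread between libraries, which may be technical.

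LY6 proteins are small, cysteine-rich antigens that sit on the outer cell membrane through a lipid (GPI) anchor, and several of them are used to tell leukocytes apart. Ly6g is the standard surface marker of mouse neutrophils, while the Ly6C antigen encoded by Ly6c1 and Ly6c2 marks inflammatory monocytes and is also carried by some lymphocytes and endothelial cells. Ly6a is better known as Sca-1, an antigen of blood stem cells, of mesenchymal progenitors and of vessels. Ly6d marks lymphoid progenitors committed to the B lineage and is also made by epithelial cells, and Ly6e is a broadly expressed member induced by interferon.

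The tables held 26397 cell barcodes and 39064142 UMIs, between 292765 and 4530115 UMIs per library, and 24536 cells with 200 or more genes and under 20% mitochondrial UMIs were kept. Some barcodes occurred in more than 1 library of a day, 279 of 5684 at day 7, 103 of 8932 at day 14 and 1046 of 7545 at day 21. In healthy lung and healthy spleen of day 21, 76% and 94.7% of barcodes could not be assigned to these libraries by a rule that gives a shared barcode to the library with 5 or more times as many of its UMIs as any other. These 2 libraries stood apart from the other 16, in which that share reached at most 30.4%, and the fitted tumour effects in lung and spleen are given with and without them. Cell classes were named from marker genes other than Ly6 genes and carry the ending "-like", since they rest on RNA alone. Alveolar macrophage-like cells made up 8.55 to 16.2% of cells in the 3 healthy lung libraries, against 0 to 2.69% in healthy spleen. B cell-like cells made up 0.587 to 52.6% of cells in healthy spleen, against 0.323 to 1.07% in healthy scaffold. The lowest of these spleen values was that of day 21, a library that thus went against its tissue label: 51.1% of its cells were squamous epithelial-like, as were 49.1% in healthy lung of day 21.

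In the reference genome of strain C57BL/6J (GRCm38) the 6 genes lie on chromosome 15 in the order Ly6d (74762056 to 74763567), Ly6e (74955025 to 74959904), Ly6a (74994877 to 74998031), Ly6c1 (75044018 to 75048920), Ly6c2 (75108161 to 75112066) and Ly6g (75155261 to 75159128). Ly6c1 and Ly6c2 are near copies. Their coding sequences agreed at 387 of 396 aligned positions (97.7%), whereas Ly6a and Ly6g shared 78.3 to 83.2% with each other and with the Ly6c genes, and Ly6d and Ly6e only 50 to 53.8% with any member. The first 150 coding bases of the reference transcripts of Ly6c1 and Ly6c2 are shown because they hold 6 of the 9 differences between the pair, marked in capitals.
Ly6c1: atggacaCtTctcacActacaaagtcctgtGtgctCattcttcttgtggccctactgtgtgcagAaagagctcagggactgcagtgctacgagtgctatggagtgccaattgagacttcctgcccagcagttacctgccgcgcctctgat
Ly6c2: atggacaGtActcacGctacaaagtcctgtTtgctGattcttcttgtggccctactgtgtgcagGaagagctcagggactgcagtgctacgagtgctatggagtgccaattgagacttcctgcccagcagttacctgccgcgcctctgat
Over the last 300 transcript bases, the end that Drop-seq reads, identity was 93.5%. Of the 50-base words of the Ly6c1 transcript 31.7% also occurred in that of Ly6c2, and 32.6% the other way. A read from such a stretch can be given to either gene, and how the authors' counting treated such reads is not given in the sources used here. All values of Ly6c1 and Ly6c2 below are uncertain in this respect. The mice were BALB/cJ and the reference is C57BL/6J, and the effect of strain differences in these genes on the counts was not tested.

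The promoter windows of the Ly6c1 and Ly6c2 genes (RefSeq, GRCm38.p6) reach to both sides of the start of each gene, at 75048920 and 75112066. They were identical at 62.3% of 334 aligned positions, 68 of which were gaps. Part of the gaps stem from an offset of the windows. The first bases of the Ly6c1 window and bases near the end of the Ly6c2 window have no partner. This identity is therefore not comparable with that of the coding parts. The windows are shown because these copies were used by different cell lineages below. Capitals mark bases that differ or have no partner. The Ly6c1 promoter lies at chr15:75048788-75049087 on the minus strand and the Ly6c2 promoter at chr15:75111922-75112221 on the minus strand.
Ly6c1 promoter: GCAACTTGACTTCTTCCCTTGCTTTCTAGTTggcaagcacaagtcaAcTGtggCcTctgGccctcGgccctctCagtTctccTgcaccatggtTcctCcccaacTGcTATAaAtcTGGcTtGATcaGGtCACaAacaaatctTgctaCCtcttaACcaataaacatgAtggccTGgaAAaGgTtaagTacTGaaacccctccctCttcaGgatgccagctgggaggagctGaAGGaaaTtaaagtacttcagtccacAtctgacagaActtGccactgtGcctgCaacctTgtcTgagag
Ly6c2 promoter: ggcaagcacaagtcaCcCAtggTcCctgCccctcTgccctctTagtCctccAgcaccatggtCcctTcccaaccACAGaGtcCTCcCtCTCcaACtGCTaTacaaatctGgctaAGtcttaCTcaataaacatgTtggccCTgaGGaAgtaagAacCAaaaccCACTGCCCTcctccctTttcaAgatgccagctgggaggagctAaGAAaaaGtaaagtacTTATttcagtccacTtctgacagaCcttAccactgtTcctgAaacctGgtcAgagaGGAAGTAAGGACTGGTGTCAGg
Searched on both strands, the letters TATAAA occurred once in the Ly6c1 window and in 13.6% of 32851 mouse promoter windows, and not in the Ly6c2 window. The C/EBP-type letters TTNNGNAA were found 2 times in the Ly6c2 window and the ETS-type letters AGGAAG 2 times, in 40.7% and 35.4% of all windows, and neither in the Ly6c1 window. The Ly6g window held each of these 2 kinds 2 times and TATAAA 1 time. Of the AGGAAG matches of the Ly6c2 window, the later one lies near its end, in bases with no partner in the Ly6c1 window. The ISRE letters GAAA and GAAA with 2 free bases between them, and the GAS letters TTC and GAA with 3 free bases between them, both known from interferon-responsive genes, were in none of these 3 windows, and in 3.44% and 8.30% of all. No 2 of these matches overlapped in any of the 3 windows, and a match of letters says nothing about binding.

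The members differed widely in abundance and in the lineages that used them. Ly6e was the most abundant, with 8673 UMIs in 4091 of the 24536 kept cells, followed by Ly6c2 (5520 UMIs, 2158 cells), Ly6c1 (2988 UMIs, 1311 cells), Ly6g (1450 UMIs, 845 cells), Ly6a (1396 UMIs, 438 cells) and Ly6d (586 UMIs, 362 cells). Levels are given as UMIs of the gene per 1000000 UMIs of the cells summed (CPM), which for reads from transcript ends are not divided by length. Intervals are exact 95% intervals that cover counting error only. Because cells of 1 library share their source and the classes were cut from the same cells, levels by class are a description with no test.

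Ly6g, the neutrophil antigen, was the member most confined to 1 lineage. Of its UMIs 71.6% lay in neutrophil-like cells and 26.3% in neutrophil progenitor-like cells. It reached 144 CPM (135 to 153) over 5883 neutrophil-like cells and 84.3 CPM (76.1 to 93.2) over 1673 progenitor-like cells, and without day 21 the progenitor-like cells were the higher. Erythroid-like cells had 52.4 CPM on 10 UMIs only, and each of the other named classes had 6.90 CPM or less. After each cell was thinned to 300 UMIs, Ly6g was seen in 2.25% of neutrophil-like and 2.82% of progenitor-like cells, against 0 of 2105 B cell-like cells. In the B cell-like class 3 cells would be a share of 0.143%. The unthinned shares were 10.7%, 11.7% and 0.0928%, at median depths of 875, 1889 and 767.5 UMIs per cell. Within the lineage the level was not even. The cluster led by Stfa3, BC117090 and BC100530, genes of the stefin A cluster, had 336 CPM, and the progenitor cluster led by the granule genes Camp and Ltf had 142 CPM. The cluster led by Stfa2 and Retnlg had 129 CPM and the one with Il1b and Csf3r among its leading genes 116 CPM, whereas the progenitor cluster of primary granule genes, led by Ctsg, Mpo and Elane, had 4.75 CPM. The basophil genes Mcpt8 and Prss34 were also among the leading genes of that cluster, and 47.5% of its 619 cells carried barcodes found in more than 1 library. The cluster led by Niacr1 and Irg1, of which 96.5% were scaffold cells, had 56.4 CPM. Lowest among the neutrophil-like clusters was the one led by Saa3, with 16.4 CPM.

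Ly6a was a gene of the stroma in these libraries. Fibroblast-like cells, 337 in number, held 67.1% of its UMIs at 1546 CPM (1448 to 1648), and 165 endothelial-like cells a further 14.3% at 965 CPM (836 to 1109). The next class, the interferon-producing plasmacytoid dendritic cell-like cells, had 79.4 CPM (41.0 to 139). At 300 UMIs per cell Ly6a was seen in 40.5% of fibroblast-like and 22.5% of endothelial-like cells, against 0.143% of B cell-like cells. Barcodes found in more than 1 library made up 49% of the fibroblast-like cells, and with such barcodes assigned to 1 library or dropped the level was 1450 CPM over 211 cells. Without the day 21 libraries it was 810 CPM. Among 11158 genes the patterns most like that of Ly6a over 136 sums of a class in a library were those of Ogn, Mfap2 and Prelp, genes of the extracellular matrix (Pearson r of log2(CPM + 10) of 0.83, 0.82 and 0.82). The sums share libraries and depth, so these values are a description.

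**Figure D1:**
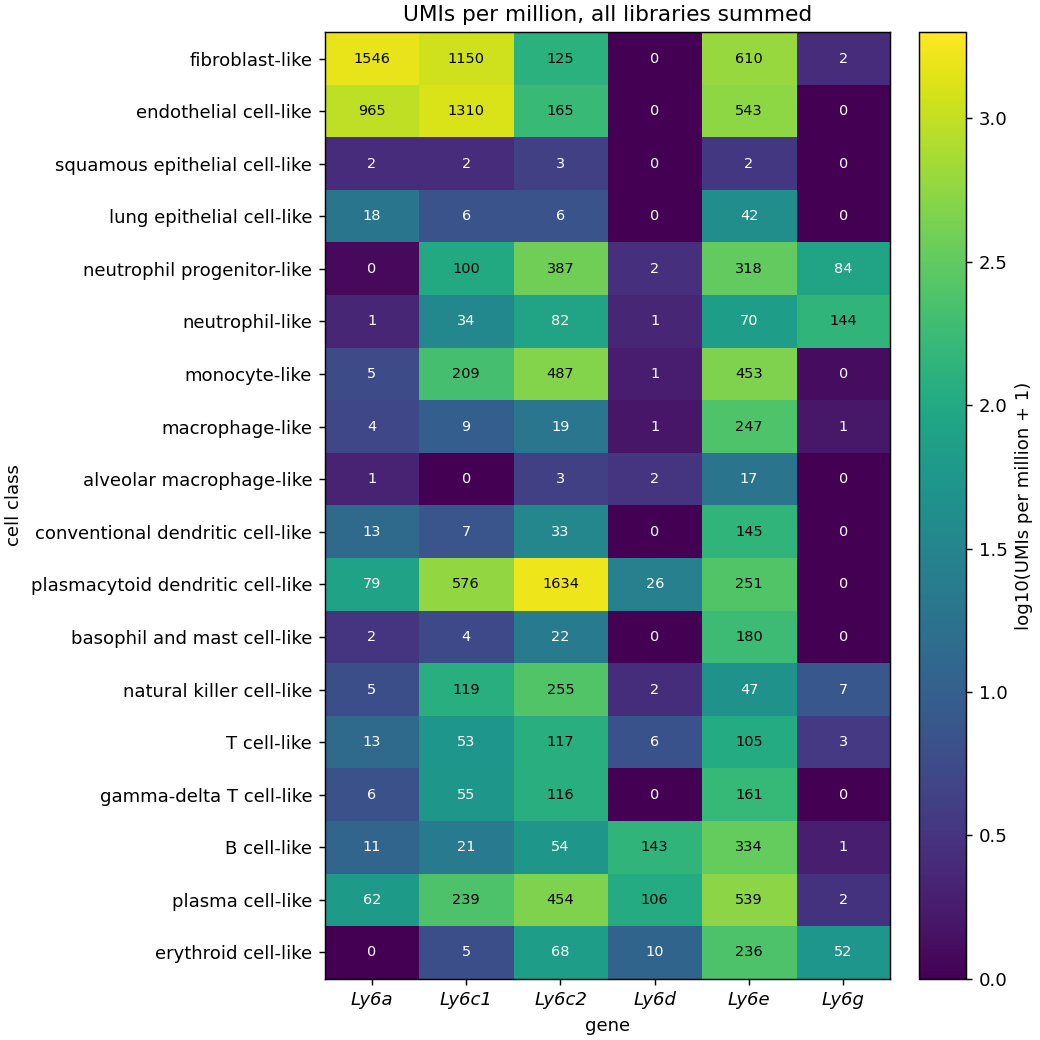
Level of each LY6 gene (columns) in the 18 named cell classes (rows), as CPM with all libraries summed, written in each cell and coloured on a log10(value + 1) scale. Ly6a peaked at 1546 in fibroblast-like cells, Ly6c2 at 1634 in plasmacytoid dendritic cell-like cells and Ly6g at 144 in neutrophil-like cells.

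Ly6c1 and Ly6c2, the gene pair behind the Ly6C antigen, did not follow the same lineages. Ly6c1 was highest in endothelial-like cells (1310 CPM, 1158 to 1476) and fibroblast-like cells (1150 CPM, 1066 to 1238), and their intervals overlapped. Ly6c2 was low there, 165 CPM (114 to 230.5) in endothelial-like and 125 CPM (98.8 to 157) in fibroblast-like cells. Its highest level was in plasmacytoid dendritic cell-like cells, 1634 CPM (1437 to 1851), which had 576 CPM of Ly6c1, but with the Ly6 genes used in clustering plasma cell-like cells were highest and plasmacytoid dendritic cell-like cells had 1615 CPM. Monocyte-like cells had 487 CPM of Ly6c2 and 209 CPM of Ly6c1, plasma cell-like cells 454 and 239 CPM, neutrophil progenitor-like cells 387 and 100 CPM, and natural killer cell-like cells 255 and 119 CPM. After thinning to 300 UMIs per cell, Ly6c2 was seen in 11.7% of monocyte-like, 8.91% of progenitor-like and 9.26% of natural killer cell-like cells. In plasma cell-like cells this share was only 2.07%. Their Ly6c2 level thus rested on few cells, and by library it ran from 0 to 800 CPM. Monocyte-like cells held the largest share of the UMIs of both genes, 32.6% for Ly6c2 and 25.8% for Ly6c1.

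The share of Ly6c1 in the sum of both genes separated stroma from blood lineages. It was 90.2% of 773 UMIs in fibroblast-like cells (87.8 to 92.2%) and 88.8% of 304 UMIs in endothelial-like cells (84.7 to 92.1%). Over the other named classes, summed, it was 27.1% of 7319 UMIs (26.1 to 28.2%). Among those with 100 or more UMIs of the pair it lay between 20.6% in neutrophil progenitor-like cells (18.9 to 22.3%) and 34.5% in plasma cell-like cells (29.4 to 39.9%). The low value of the progenitor-like cells was that of tumour-bearing spleen, 17.9% of 1770 UMIs (16.1 to 19.8%). Those of tumour-bearing lung had 31.1% of 344 UMIs (26.2 to 36.3%) and those of tumour-bearing scaffold 41.1% of 56 UMIs (28.1 to 55.0%). The libraries of tumour-bearing spleen were not alike. Over all their cells the share was 9.36% at day 14, against 40.8% at day 7 and 34.9% at day 21. The pooled spleen value is therefore not shown to be a trait of the tissue. How many reads were given to the wrong copy was not tested. The contrast was seen in both states, in the classes with 100 UMIs in each: fibroblast-like cells of scaffold had 84.6% in tumour-bearing mice (78.3 to 89.7%) and 92.9% in healthy mice (90.2 to 95.1%), and endothelial-like cells of lung 88.7% in tumour-bearing mice and 88.3% in healthy mice. Monocyte-like cells of lung had 30.8% in tumour-bearing mice (26.9 to 34.9%) and 26.7% in healthy mice (21.5 to 32.4%), and those of scaffold had 30.4% and 32.4%, with overlapping intervals. Plasma cell-like cells of spleen had 36.4% in tumour-bearing mice (29.0 to 44.2%) and 35.0% in healthy mice (26.5 to 44.4%). Of all 11158 genes Ly6c2 was still the one most like Ly6c1 over the 136 sums (r = 0.75), followed by Vcan (0.57) and Arhgef10l (0.52), and those next to Ly6c1 in likeness to Ly6c2 were Plac8 (0.59) and Ctse (0.54).

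**Figure D2:**
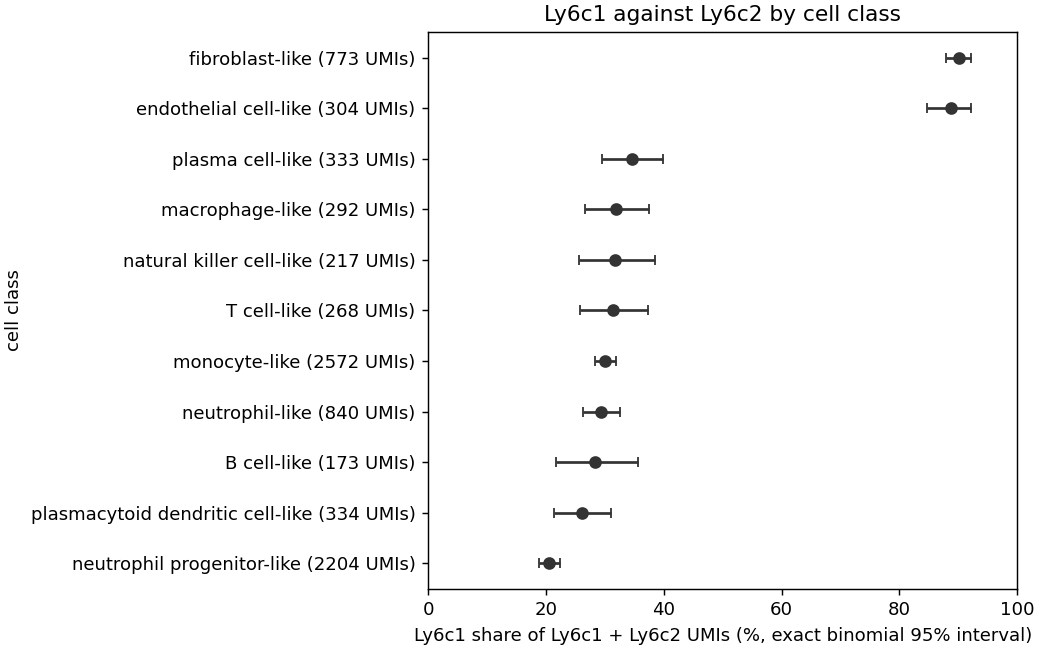
Share of Ly6c1 in the UMIs of Ly6c1 and Ly6c2 (horizontal axis, percent) for each named class with 100 or more UMIs of the pair, points with exact binomial 95% intervals. Fibroblast-like cells (90.2%) and endothelial-like cells (88.8%) stand apart from the other classes, which lie between 20.6% and 34.5%.

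Within the monocyte-like class the Ly6C genes varied by subset and by tissue. Ly6c2 reached 1264 CPM in the cluster led by Ccr2, the chemokine receptor of inflammatory monocytes, and 1068 CPM in that led by Vcan and Ms4a8a. A cluster led by Ccl24, of which 81% were scaffold cells, had 218 CPM. By tissue, Ly6c2 in monocyte-like cells was 261 ± 117 CPM in tumour-bearing scaffolds and 352 ± 101 CPM in healthy scaffolds (SD, n = 3 each). In lung it was 737 ± 115 CPM in tumour-bearing mice and 991 ± 341 CPM in healthy mice (SD, n = 3 each), where the day 21 library had 600.5 CPM and those of days 7 and 14 had 1138 and 1234 CPM. In spleen it was 1050 ± 356 CPM in tumour-bearing mice (SD, n = 3) and 830 and 264 CPM in healthy mice at days 7 and 21, on 16 and 4 UMIs. The Ccl24 cluster held 1301 of the 2456 monocyte-like cells, so that tissues are compared here across different clusters of the class.

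Ly6d was used by the B lineage and by a small group of cells with epithelial genes. B cell-like cells held 55.8% of its UMIs at 143 CPM (128 to 159), and plasma cell-like cells 8.7% at 106 CPM (79.1 to 140), an order of levels that turned at the clustering resolutions 0.5 and 2 and with the Ly6 genes used in clustering. A further 28% of all its UMIs lay in cells left without a class name. All 164 UMIs of that share belonged to 1 group of 93 cells, 78 of them from scaffold, at 984 CPM. Its leading genes were Ptn, Prlr, the prolactin receptor, Fam25c, Krt19, Epcam and Aqp5, the last 3 epithelial genes, with the milk casein gene Csn3 also among the top 10. In B cell-like cells of lung it was 104 ± 25.1 CPM in tumour-bearing and 106 ± 38.0 CPM in healthy libraries (SD, n = 2 each, days 7 and 14). In B cell-like cells of spleen it was 117 ± 121 CPM in tumour-bearing libraries (SD, n = 3) and 172 ± 41.9 CPM in healthy libraries (SD, n = 2). In both tissues the libraries of the 2 states overlapped. The squamous epithelial-like cells, 2072 in number, held 0 Ly6d UMIs, and 97.3% of them carried barcodes found in more than 1 library. The genes most like Ly6d over the 136 sums were Chst3 (r = 0.85), 4931429I11Rik (0.84) and Pou2af1 (0.84), the last a coactivator of B cells.

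Ly6e was the broadest member. It was highest in fibroblast-like (610 CPM, 550 to 676), endothelial-like (543 CPM, 447 to 654) and plasma cell-like cells (539 CPM, 476 to 609), 3 classes whose intervals overlapped and whose order changed with the clustering and with the days used. Monocyte-like cells had 453 CPM, B cell-like cells 334 CPM and progenitor-like cells 318 CPM. Macrophage-like cells had 247 CPM and held the largest share of its UMIs, 30.4%. The lowest level among the macrophages was that of alveolar macrophage-like cells, 17.5 CPM (16 UMIs). No gene followed Ly6e closely: the nearest were Aldh2 (r = 0.59), Ly86 (0.55) and Cst3 (0.54). At 300 UMIs per cell 23124 cells could be compared, and the only member pairs seen together in more than 100 cells were Ly6c1 with Ly6c2 (155 cells) and Ly6c2 with Ly6e (124 cells). Ly6a and Ly6c1 were seen together in 70 cells, 52 of them fibroblast-like.

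The comparison of tumour-bearing with healthy mice was made on the UMIs of all kept cells of a library, with edgeR's quasi-likelihood test over 11158 genes and Benjamini-Hochberg adjustment. In such sums fewer cells of a type and less RNA per cell cannot be told apart. The share of all genes whose groups did not overlap, or that went the same way at every day, was not counted. Such statements on members below are therefore a description only. Ly6g was higher in tumour-bearing mice in all 3 tissues, and Ly6a was lower in scaffold and spleen. Ly6c1, Ly6c2, Ly6d and Ly6e passed the threshold of 0.05 in none of them. Thus 1 of 6 members was called in lung, where 9.07% of all genes were called (6.16% higher, 2.91% lower). In scaffold 2 of 6 were called, against 0.161% of all genes (0.108% higher, 0.0538% lower), and in spleen 2 of 6, against 3.31% (2.79% higher, 0.52% lower). The median log2 fold change of all genes was -0.22 in lung, 0 in scaffold and -0.03 in spleen, and with library totals in place of TMM scaling it was -0.49, -0.10 and -0.32. Fitted without the day as a block, edgeR called 1 member in lung, Ly6g, and 0 in scaffold and spleen.

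Ly6g had 39.9, 164 and 111 CPM in tumour-bearing lungs at days 7, 14 and 21, against 2.09, 1.74 and 0 CPM in healthy lungs, which held 2, 2 and 0 UMIs. In spleen it had 82.1, 32.8 and 65.8 CPM in tumour-bearing mice, against 27.5, 2.50 and 0 CPM in healthy mice (17, 3 and 0 UMIs). In scaffold it had 3.96, 8.82 and 66.6 CPM in tumour-bearing mice, against 0.85, 0.44 and 2.38 CPM in healthy mice (2, 1 and 8 UMIs). Tumour-bearing and healthy libraries did not overlap in any tissue, and every day went the same way. The 2 healthy libraries at 0 are those of day 21 with mostly shared barcodes, in whose tables Ly6g has no row and was taken as 0, where a count of 0 allows up to 4.91 CPM in lung and 10.3 CPM in spleen.

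The log2 fold change of Ly6g was 6.38 ± 0.79 in lung (SE, adjusted p = 0.000873, edgeR), 4.35 ± 0.77 in scaffold (adjusted p = 0.0439) and 3.02 ± 0.63 in spleen (adjusted p = 0.0171). Without the 2 healthy libraries of mostly shared barcodes it was 6.01 in lung, 4.42 in scaffold and 2.48 in spleen, and it stayed past the threshold in each. Without day 14 it was called in no tissue. The values were then 6.11, 4.31 and 2.64 in lung, scaffold and spleen, with adjusted p = 0.0574, 0.398 and 0.366. In scaffold the call was also lost without day 21, where the value was 3.12 with adjusted p = 1. Leaving out a day also leaves fewer libraries for the test, and the part of this in the lost calls was not tested. Neutrophil-like cells moved with Ly6g, at 51.9% ± 12.2 of cells in tumour-bearing lungs and 4.39% ± 3.65 in healthy lungs (SD, n = 3 each). In scaffold they made up 26.0% ± 13.7 in tumour-bearing mice and 6.72% ± 5.17 in healthy mice, and in spleen 21.4% ± 12.4 and 0.88% ± 0.71. The part of this share in the result was not tested, and the values within the class follow further on.

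Ly6a had 3.26, 22.6 and 43.1 CPM in tumour-bearing scaffolds at days 7, 14 and 21, against 25, 72.0 and 153 CPM in healthy scaffolds. In spleen it had 11.8, 4.44 and 8.82 CPM in tumour-bearing mice, against 27.5, 20.8 and 47.9 CPM in healthy mice. In lung it had 10.2, 28.5 and 24.9 CPM in tumour-bearing mice, against 12.5, 111 and 88.3 CPM in healthy mice. With all kept barcodes the tumour-bearing library was the lower one at each day and in each tissue, and in spleen the groups did not overlap. With shared barcodes assigned, spleen of day 21 had 0 Ly6a UMIs in tumour-bearing and in healthy mice, so that day showed no difference and the groups overlapped. The log2 fold change was -1.95 ± 0.36 in scaffold (SE, adjusted p = 0.0497, edgeR), -1.66 ± 0.41 in spleen (adjusted p = 0.0407) and -1.25 ± 0.38 in lung, where it missed the threshold (adjusted p = 0.0532). Both calls lay close to the threshold. Leaving out any 1 day ended the scaffold call, at -1.60, -2.15 and -2.19 without days 7, 14 and 21, and leaving out day 14 (-1.55) or day 21 (-1.53) ended the spleen call. With shared barcodes assigned the spleen value was -1.68 (adjusted p = 0.108), and without the healthy libraries of day 21 in lung and spleen it was -1.51 (adjusted p = 0.165), not called in either case. Without these libraries the lung value was -1.05 (adjusted p = 0.296). Fibroblast-like cells made up 1.59% ± 1.43 of cells in tumour-bearing scaffolds and 2.64% ± 1.67 in healthy scaffolds (SD, n = 3 each). In spleen they made up 0.46% ± 0.48 and 1.15% ± 1.40, and in lung 0.70% ± 0.38 and 1.60% ± 0.89. In each tissue the libraries of the 2 states overlapped in this share. Endothelial-like cells of lung made up 0.81% ± 0.49 in tumour-bearing mice (0.354 to 1.33%) and 3.69% ± 3.58 in healthy mice (1.59 to 7.82%). The part of these shares in the result was not tested.

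**Figure D3:**
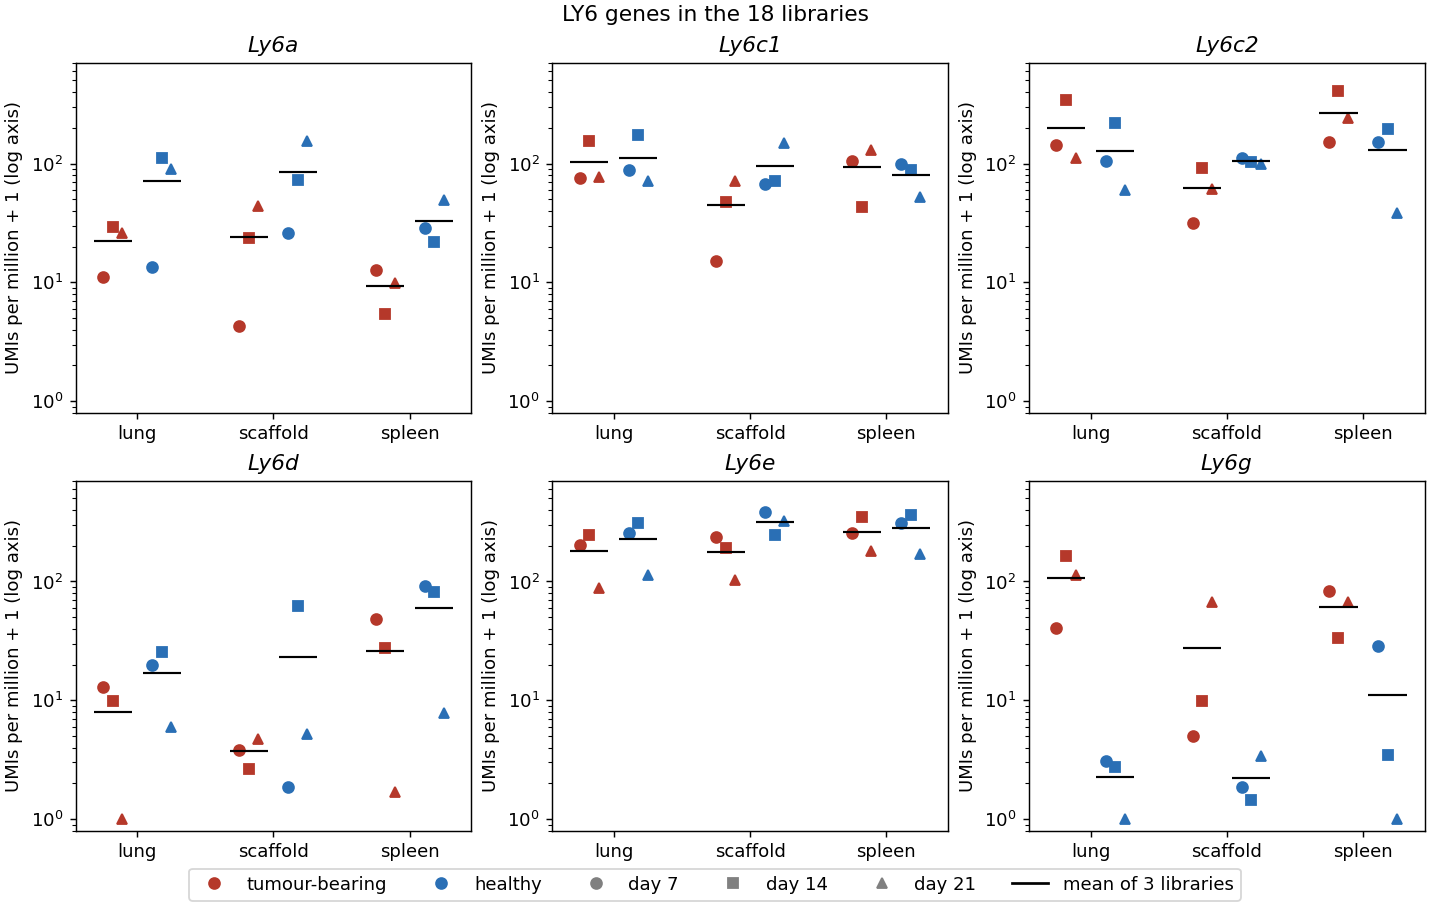
CPM plus 1 (log axis) of each LY6 gene in all 18 libraries by tissue, tumour-bearing to the left of healthy, with a symbol for each day and a bar at the mean of 3 libraries. Ly6g of tumour-bearing lung lies between 39.9 and 164 CPM, against 0 to 2.09 in healthy lung, and with all kept barcodes Ly6a lies lower in the tumour-bearing library of each day.

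Ly6c2 passed the threshold in no tissue, and its fitted changes differed in sign. In lung it had 142, 339 and 110 CPM in tumour-bearing mice at days 7, 14 and 21, against 105, 219 and 58.9 CPM in healthy mice. In spleen it had 152, 406 and 242 CPM in tumour-bearing mice, against 152, 195 and 37.7 CPM in healthy mice. In scaffold it had 30.5, 90.9 and 60.4 CPM in tumour-bearing mice, against 110, 102 and 98.9 CPM in healthy mice. With all kept barcodes the tumour-bearing library was thus the higher one at 3 of 3 days in lung and the lower one at 3 of 3 days in scaffold. Day 21 turned in lung and spleen once shared barcodes were assigned: Ly6c2 then had 123 CPM in tumour-bearing lung, against 237 CPM in healthy lung on 27 UMIs, and 259 CPM in tumour-bearing spleen, against 305 CPM in healthy spleen on 6 UMIs. The log2 fold change was 0.92 ± 0.45 in lung (adjusted p = 0.194, edgeR), 1.41 ± 0.48 in spleen (adjusted p = 0.137) and -0.80 ± 0.45 in scaffold (adjusted p = 1). Without the 2 libraries of mostly shared barcodes it was 0.83 in lung (adjusted p = 0.371) and 0.77 in spleen (adjusted p = 0.433), and with shared barcodes assigned 0.53 and 0.88 (adjusted p = 0.461 and 0.316).

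Ly6c1 had 74.7, 155 and 76.0 CPM in tumour-bearing lungs, against 87.8, 171 and 70.4 CPM in healthy lungs. In scaffold it had 14.0, 46.3 and 70.4 CPM in tumour-bearing mice, against 65.7, 69.8 and 147 CPM in healthy mice, lower at each day (log2 -1.17 ± 0.41, adjusted p = 0.750, edgeR). In spleen it had 105, 41.9 and 130 CPM in tumour-bearing mice, against 98.6, 86.6 and 51.4 CPM in healthy mice. Its log2 fold changes in lung and spleen, 0.18 ± 0.41 and 0.32 ± 0.43, changed sign, in lung with library totals as scaling (-0.10; 0.11 without the 2 libraries of mostly shared barcodes) and in spleen without those 2 libraries (-0.27). The lowest Ly6c1 share of the pair in any library, 9.36% (7.98 to 10.9%), was that of tumour-bearing spleen at day 14, and the highest, 59.8% (56.4 to 63.1%), that of healthy scaffold at day 21.

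Ly6e had 201, 246 and 87.5 CPM in tumour-bearing lungs, against 253, 308 and 113 CPM in healthy lungs. In scaffold it had 234, 192 and 102 CPM in tumour-bearing mice, against 381, 246 and 322 CPM in healthy mice, lower at each day (log2 -0.80 ± 0.30, adjusted p = 0.843, edgeR). In spleen it had 254, 347 and 181 CPM in tumour-bearing mice, against 312, 360 and 168 CPM in healthy mice, with a log2 fold change of 0.21 ± 0.30 that turned to -0.09 with library totals as scaling and was 0.05 without the 2 libraries. In lung the log2 fold change was -0.07 ± 0.30 and its sign differed between alternatives. Ly6d, which has no row in the table of tumour-bearing lung at day 21 and was taken as 0 there, had 11.9, 8.95 and 0 CPM in tumour-bearing lungs, against 18.8, 24.3 and 4.91 CPM in healthy lungs. In spleen Ly6d had 47.3, 26.4 and 0.68 CPM in tumour-bearing mice, against 90.5, 80.7 and 6.85 CPM in healthy mice, lower at each day as in lung. In scaffold it had 2.80, 1.65 and 3.72 CPM in tumour-bearing mice, against 0.85, 61.5 and 4.16 CPM in healthy mice, where 135 of the 141 UMIs of the high library belonged to the unnamed group above. The log2 fold changes of Ly6d were -1.19 ± 0.95, -1.20 ± 0.80 and -1.36 ± 0.95 in lung, spleen and scaffold (adjusted p = 0.419, 0.460 and 1, edgeR), and in scaffold the value turned to 0.62 without day 14. Without the 2 libraries of mostly shared barcodes they were -0.76 in lung and -1.06 in spleen.

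**Figure D4:**
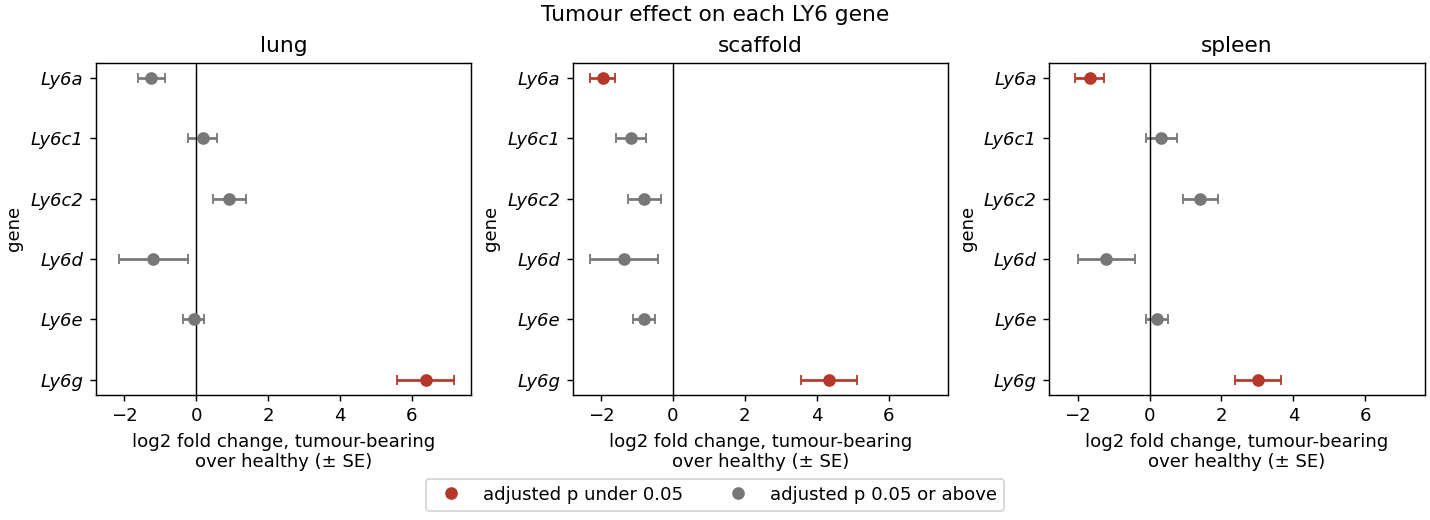
Log2 fold change of each LY6 gene, tumour-bearing over healthy, with its standard error (horizontal axis), in lung, scaffold and spleen, red where the adjusted p was under 0.05. Ly6g lies at 6.38, 4.35 and 3.02 and Ly6a at -1.25, -1.95 and -1.66.

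The test of the difference itself gave no member whose tumour effect differed between tissues. By edgeR 0 of 18 member and tissue-pair contrasts were called, 6 had an unadjusted p under 0.05, and DESeq2 called 0. Of all genes 0% differed between lung and scaffold, 0% between spleen and scaffold and 0.0179% between lung and spleen. For Ly6g the tumour effect in lung minus that in spleen was 3.37 ± 1.16 (log2, adjusted p = 0.401). For Ly6c2 spleen minus scaffold was 2.21 ± 0.66 (adjusted p = 0.441) and lung minus scaffold 1.72 ± 0.64 (adjusted p = 0.485). The tumour effect did not change with day past the threshold either: by edgeR 0 of 6 members were called for a linear change, against 0.556% of all genes, 3 had an unadjusted p under 0.05, and DESeq2 called 1, Ly6g. The fitted change of the tumour effect per 7 days was 1.93 ± 0.43 log2 units for Ly6g (adjusted p = 0.0503) and 0.78 ± 0.24 for Ly6c2 (adjusted p = 0.134). Among healthy mice no member differed between tissues by edgeR (0 of 18 contrasts, 1 with an unadjusted p under 0.05), and DESeq2 called 1, Ly6g. Of all genes 5.95% differed between scaffold and lung, 15.6% between scaffold and spleen and 0.699% between lung and spleen. The nearest was Ly6g in scaffold minus spleen, -3.30 ± 1.28 (adjusted p = 0.0918), which rested on 17 UMIs of 1 spleen library.

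The cells that held each gene are described by tissue and state, with no test. Ly6g of tumour-bearing lungs lay mostly in neutrophil-like cells (89.3% of 723 UMIs), and so did that of tumour-bearing scaffolds (87.9% of 248 UMIs). In tumour-bearing spleens 60.8% of its 444 UMIs lay in progenitor-like cells and 36.3% in neutrophil-like cells. At day 7 of that tissue 110 of the 132 UMIs came from 28 progenitor-like cells, at 857 CPM. Progenitor-like cells made up 18.6% ± 14.4 of cells in tumour-bearing spleens and 2.87% ± 3.96 in healthy spleens (SD, n = 3 each). Those cells also carried 60.0% of the 2421 Ly6c2 UMIs and 57.0% of the 2192 Ly6e UMIs of tumour-bearing spleens. In healthy spleens the largest sources were plasma cell-like and B cell-like cells for Ly6c2 (22.4% and 22.1% of 339 UMIs) and B cell-like cells for Ly6e (51.3% of 674 UMIs). The largest source of Ly6c1 in lung was monocyte-like cells in tumour-bearing mice (27.4% of 602 UMIs) and endothelial-like cells in healthy mice (44.1% of 324 UMIs). In scaffold Ly6a stayed with fibroblast-like cells, 82.5% of 194 UMIs in tumour-bearing mice and 84.1% of 738 UMIs in healthy mice.

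**Figure D5:**
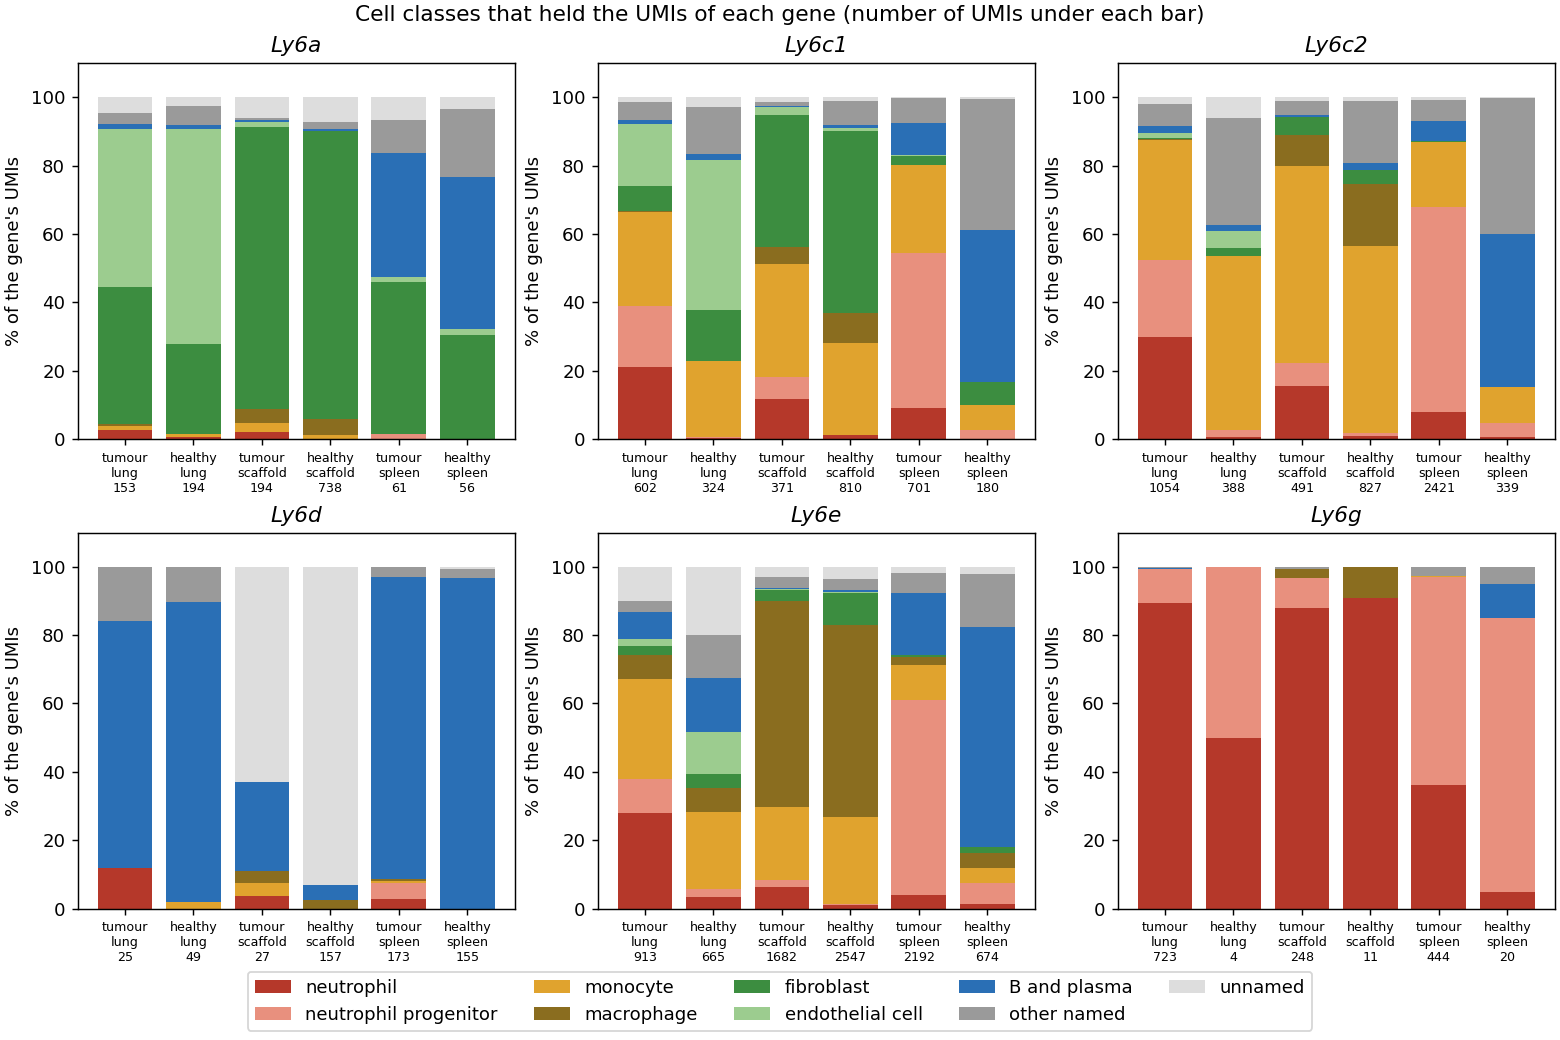
Percent of the UMIs of each LY6 gene that lay in each cell class (stacked colours), for tumour-bearing and healthy libraries of each tissue, with the number of UMIs under each bar. In tumour-bearing spleen progenitor-like cells held 60.8% of Ly6g and 60.0% of Ly6c2.

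Summed within a class and tested in the same way, no member was called: by edgeR 0 of 36 tests, of which 7 had an unadjusted p under 0.05, and DESeq2 called 0. Of all genes tested within neutrophil-like cells 0.992% were called in lung and 1.39% in scaffold, within monocyte-like cells 0.663% in lung, 0.485% in scaffold and 0.714% in spleen, and within macrophage-like cells 0% in lung, 0.0863% in scaffold and 0% in spleen. Within B cell-like cells 0.148% were called in lung and 0.296% in spleen, within T cell-like cells 0.281% in lung and 0.468% in spleen, and within natural killer cell-like cells 0.186% in lung and 1.03% in scaffold. Within alveolar macrophage-like cells of lung 0.137% and within plasma cell-like cells of spleen 0.245% were called.

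In neutrophil-like cells the level of Ly6g in each library could be set beside the library sums. Neutrophil-like cells had 116, 228 and 141 CPM of Ly6g in tumour-bearing lungs at days 7, 14 and 21, against 23.2 and 29.0 CPM in healthy lungs at days 7 and 14, on 1 UMI each. In scaffold they had 60.9, 75.0 and 186 CPM in tumour-bearing mice, against 37.6, 0 and 61.3 CPM in healthy mice. In tumour-bearing spleen they had 118, 46.7 and 189 CPM, and healthy spleen had too few of these cells to compare. The log2 fold change per class was 2.92 ± 0.98 in lung (adjusted p = 0.190, edgeR, days 7 and 14) and 1.54 ± 0.72 in scaffold (adjusted p = 0.344), neither past the threshold. With 2 UMIs in the 117 healthy lung cells a difference of this size rests on very few molecules.

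The fitted changes of Ly6e within classes differed in sign, and none was called. Neutrophil-like cells of lung had 63.5 ± 8.20 CPM in tumour-bearing mice (SD, n = 3) and 287 ± 119 CPM in healthy mice (SD, n = 2). The log2 fold change was -1.82 ± 0.66 (adjusted p = 0.291, edgeR). Macrophage-like cells of scaffold had 171 ± 76.8 CPM in tumour-bearing mice and 306 ± 108 CPM in healthy mice (SD, n = 3 each), with a log2 fold change of -0.89 ± 0.24 (adjusted p = 0.460). Monocyte-like cells of scaffold had 289 ± 88.1 CPM in tumour-bearing mice and 476 ± 94.5 CPM in healthy mice, with a log2 fold change of -0.73 ± 0.28 (adjusted p = 0.630). It was also negative in monocyte-like cells of lung (-0.54 ± 0.31), neutrophil-like cells of scaffold (-0.65 ± 0.58) and T cell-like cells of lung (-1.72 ± 0.58, adjusted p = 0.935). Positive values were fitted in macrophage-like cells of lung (0.32 ± 0.42) and spleen (0.23 ± 0.44) and in monocyte-like cells of spleen (0.23 ± 0.49). For the Ly6C pair, monocyte-like cells of spleen had log2 fold changes of 1.43 ± 0.63 for Ly6c1 (adjusted p = 0.330) and 0.93 ± 0.50 for Ly6c2 (adjusted p = 0.426), and those of scaffold -0.55 ± 0.34 and -0.47 ± 0.31 (adjusted p = 0.999 for each). The spleen values rest on days 7 and 21, and the 38 healthy cells of day 21, from the library of mostly shared barcodes, held 1 Ly6c1 and 4 Ly6c2 UMIs. They were not fitted without that library.

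Other genes of the family and the interferon-induced genes were read from lists. Of 34 other genes of the LY6 and uPAR superfamily, 21 were measured and 3 passed the filter, and by edgeR 0 were called in lung, scaffold or spleen (1, 0 and 1 with an unadjusted p under 0.05, and 0 called by DESeq2). Of 20 genes of the type I interferon response, which includes many that rise with Ly6e and Ly6a under interferon, 2 were higher in tumour-bearing lungs and none lower by edgeR, a share near the 9.07% of all genes called there (8 with an unadjusted p under 0.05, and 4 called by DESeq2). These were Oasl1 (log2 1.88 ± 0.51, adjusted p = 0.0372) and Oas2 (2.11 ± 0.61, adjusted p = 0.0475), antiviral genes of the oligoadenylate synthetase family. In scaffold and spleen 0 of 20 were called by edgeR (3 and 2 with an unadjusted p under 0.05, and 0 called by DESeq2). The median log2 fold change of the list was 0.53 in lung, -0.72 in scaffold and 0.13 in spleen, beside -0.22, 0 and -0.03 over all genes. Of 19 tested genes of the interferon gamma response, Irf1, a transcription factor induced by interferon, was higher in lung (1.59 ± 0.33, adjusted p = 0.0111). It was the 1 gene of the list called there, against 9.07% of all genes (5 with an unadjusted p under 0.05, and 1 called by DESeq2), and by edgeR 0 were called in scaffold or spleen (2 and 0 with an unadjusted p under 0.05, and 0 called by DESeq2), with list medians of 0.37, -0.49 and -0.41 in lung, scaffold and spleen.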

How the data were processed

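Each of the 18 libraries had a deposited table of UMI counts per gene and cell barcode, made by the authors from Drop-seq of about 1000 captured beads per library, per the labels' protocols. The build mm10 and Seurat version 2 are named in the submitters' processing notes, and the aligner, like the annotation, is not given in the sources used here. Cells with 200 or more genes and under 20% mitochondrial UMIs were kept. Cells were clustered with scanpy 1.11.5 (scaled to 10000, 2000 variable genes without 13 Ly6 genes, 30 components, 15 neighbours, leidenalg 0.10.2 at resolution 1, 27 clusters, sub-clusters at 0.5). Names came from 18 marker lists (196 of 201 markers measured), by naming thresholds chosen with the clusters in view. A name needed at least 3 markers raised 1.5-fold, a mean log2 fold of 1 or more over the list, and 20 cells. No other class could have more markers among the top 10 genes. No doublet caller was run, so barcodes with cells caught together may remain.

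Counts were summed per library, or per class and library with 20 or more cells, and tested with edgeR 4.0.16 (R 4.3.3; TMM, filterByExpr, quasi-likelihood test, Benjamini-Hochberg adjusted p under 0.05) in a design of 9 tissue-by-day terms plus 1 tumour term in each of the 3 tissues. The day number paired the samples, since healthy mice were matched in time to each day. Deviations of the tumour-bearing and healthy library of a tissue and day correlated at 0.16 to 0.63 in all 9 pairs. These correlations cannot show that the pairing is needed, because libraries of a day also shared barcodes. The part of shared barcodes in them was not tested. Fold changes come from the fit, and each SE from its F statistic. DESeq2 1.42.0, library totals, other filters and omitted libraries were alternatives. On simulated counts for the lung comparison (10584 genes) 46 of 50 genes raised 4-fold and 37 of 50 lowered 4-fold were called. So were 7 of 50 genes raised 2-fold and 3 of 10384 unchanged genes. The changed genes were drawn from those with higher counts, and no tissue or day effects were simulated. These shares therefore do not carry over to members with few UMIs. Totals of 292765 to 4530115 UMIs per library set the precision, and intervals cover counting error only. Sequences were aligned with Biopython 1.88.

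The members and gene lists were chosen with earlier results of these data known. All 6 members are named, with up to 4 called genes of each list and the 3 genes most like each member.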

Additional observations from a re-analysis of the deposited data

Results flagged for a closer look

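The tumour effect on Ly6c2 was higher in lung than in scaffold by 1.72 ± 0.64 on the log2 scale. It was picked out because the tumour-bearing library was the higher one at 3 of 3 days in lung and the lower one at 3 of 3 days in scaffold, with all kept barcodes. With shared barcodes assigned, day 21 in lung turned, at 123 CPM in tumour-bearing and 237 CPM in healthy mice. The edgeR test of the difference itself did not pass (adjusted p = 0.485).

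Ly6d reached 984 CPM in 93 cells left without a class name, which entered no comparison within classes. The group was singled out after its values were seen. Of these cells 78 were from scaffold, and 25.8% carried barcodes found in more than 1 library. In healthy scaffold at day 14, 46 of them held 135 of the 141 Ly6d UMIs.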

How the results depend on the processing

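The counts compared were those of members called and of members that kept their class of highest level. Under alternatives 74 values stayed within 1.5 times the value reported, 17 were higher and 18 lower. In lung, where 1 was called, 2 were with library totals alone and with DESeq2 (Ly6a and Ly6g) and 2 with no filter on low counts (Ly6c2 and Ly6g), and leaving out a day gave 0 to 2. In scaffold, where 2 were called, 1 was with 400 or more genes per cell and 1 with no filter on mitochondrial share (Ly6g), and leaving out a day gave 0 to 1. In spleen, where 2 were called, 1 was (Ly6g) with shared barcodes assigned, with 400 or more genes per cell, with no mitochondrial filter, with the tissue fitted alone and without the 2 healthy libraries of day 21, the last chosen after seeing the data, and leaving out a day gave 0 to 2. Without the replicate block of days, 0 were called in scaffold and 0 in spleen, against 2 each with it. Ly6g then stood at 4.45 in scaffold (adjusted p = 0.929) and 2.86 in spleen (adjusted p = 0.245), and Ly6a at -1.70 and -1.62. The block changed no other call. For differences between tissues, none called, 3 were with no filter on low counts. For the change with day, none called, 1 was with DESeq2, 2 with no filter, 1 with barcodes alike in 11 bases merged, and leaving out a day gave 0 to 3. For healthy tissues, none called, 1 was with DESeq2, 3 with no filter, 1 with shared barcodes assigned, 1 with 400 or more genes per cell, 1 without the 2 libraries, and leaving out a day gave 0 to 1. Within classes, none called, leaving out a day gave 0 to 2 (Ly6c1 and Ly6c2 of monocyte-like spleen cells without day 7). With the Ly6 genes among the variable genes, 3 of 6 members kept the class of highest level, and Ly6c2, Ly6d and Ly6e were led by plasma cell-like cells.

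Among single members 14 values changed sign, none of a called result. Ly6c1 in lung became -0.10 with library totals and -0.037 with shared barcodes assigned. Ly6c1 in spleen became -0.064 with shared barcodes assigned, -0.27 with them assigned and day 21 left out, -0.27 without the 2 libraries and -0.29 without day 21. Ly6e in lung became 0.17 with no low-count filter, 0.18 with 400 or more genes, 0.077 with no mitochondrial filter, 0.014 with the tissue alone, and 0.088 and 0.11 without days 7 and 14. Ly6e in spleen became -0.089 with library totals, and Ly6d in scaffold 0.62 without day 14. Ly6c1 in endothelial-like cells moved to 873 to 1787 CPM when a day was left out, and Ly6a in fibroblast-like cells to 810 CPM without day 21. The causes of these changes were not tested. Ly6g kept its sign in 15 of 15 alternatives in each tissue and was called in 14 in lung, 11 in scaffold and 13 in spleen. Depth limits Ly6g in healthy mice, where 0 to 17 UMIs were counted per library.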
